A study of Mus musculus with 18 samples.

Results

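The BCL2 family decides whether a cell opens the outer membrane of its mitochondria and dies. BCL2, BCL-XL (encoded by Bcl2l1), BCL-W (Bcl2l2) and MCL1 are guardians, which bind and hold back the pore-forming effectors BAX and BAK. BH3-only proteins, such as BIM (Bcl2l11), BAD, BID, BIK and BMF, are death signals that occupy the groove of the guardians, and BIM and BID can also activate the effectors directly. Small cell lung cancer is known for high BCL2, and inhibitors that mimic BH3-only proteins have been tried against it. Here 4 guardians and 5 BH3-only genes were followed across 3 genotypes of a mouse model of the disease. They were chosen by name, as the anti-apoptotic members and the BH3-only genes, and make up 9 of the 46078 genes in the RNA-seq count table. The choice was made with earlier results of these data known. The 54 ATAC-seq peaks that overlapped any of them, from 5000 bp upstream of the gene start to the gene end, were taken with them out of 111664 peaks in all.

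ATAC-seq counts reads from places where a transposase could reach the DNA, and so measures open chromatin. TKO mice carry Rb1L/L and p53L/L with another conditional allele, given as Rbl1L/L in the labels and as Rbl2 in the study's account of the tumors. Mice of the CARM1 knockout group carry the same 3 alleles with Carm1L/L, which removes an arginine methyltransferase. Mice of the NFIB mutant group carry the same 3 alleles with NfibR388K, a knock-in that replaces the arginine of the transcription factor NFIB that CARM1 methylates. All 3 genotypes received Adenovirus-Cre in the lungs at 8 weeks of age, and cancer cells were collected 28 weeks later from 3 animals of each genotype. The conditional alleles are lost only in cells the virus reached, whereas the NfibR388K allele is present in the germline. The methods describe sorting of the cells for tdTomato, a reporter that Cre switches on. The methods for ATAC-seq also speak of cancer cell lines, so whether the cells were sorted directly or first cultured is not settled here. Each assay had 9 libraries, 3 per genotype.

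RNA-seq libraries held 15848866 to 20915057 counts in genes, and ATAC-seq libraries 26917178 to 47653979 counts on peaks. A gene with 3 counts, taken as the detection limit, corresponds to 0.143 to 0.189 counts per 1000000 (CPM), and this limit covers counting error only. CPM were scaled with edgeR's TMM factors. A gene was called when edgeR's quasi-likelihood test gave a Benjamini-Hochberg adjusted p under 0.1 with a log2 fold change of at least 0.8 in size, and a peak at 0.5. The RNA groups differed widely in cell type markers. Summed CPM of 11 neuroendocrine markers were 1602 to 3938 in TKO and 33.4 to 51.5 in the NFIB mutant. In the CARM1 knockout they were 59.3, 188 and 1733. Chga (chromogranin A), a protein of neuroendocrine secretory granules, was at 125 to 335 CPM in TKO and at 210 CPM in the third CARM1 knockout library, but at 1.34 CPM or less in the other 5 mutant libraries, which thus nearly lack this marker of the labelled cells. Summed CPM of 8 fibroblast markers were 15.2 to 70.5 in TKO, 14972 to 26402 in the CARM1 knockout and 9998 to 16602 in the NFIB mutant. The 8 leukocyte markers summed to 4.15 to 54.7, 180 to 2665 and 27.0 to 525 CPM, with Cd3e at 0 in every library. The 6 endothelial markers summed to 73.8 CPM at most, with Cldn5 at 0 throughout. The sum of the 8 lung epithelium markers ranged from 2.78 to 1064 CPM, with no order of this sum by genotype. Of the 7 of these that were tested, 3 were called higher and 1 lower in the NFIB mutant, and 1 lower in the CARM1 knockout. In bulk RNA, fewer cells of a type and less RNA per cell cannot be told apart, and the part these markers play in the results on the BCL2 family was not tested.

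The targeted genes do not check the labels. Carm1 was at 97.5, 103 and 44.4 CPM in TKO, at 63.3, 79.1 and 50.7 CPM in the libraries labelled CARM1 knockout, and at 100, 104 and 102 CPM in the NFIB mutant. The counts cover the whole gene and not the deleted exons alone, and R388K is a point mutation that gene counts do not show. Nfib transcripts were at 419 to 579 CPM in TKO, 74.4 to 216 CPM in the CARM1 knockout and 83.3 to 105 CPM in the NFIB mutant.

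Sequences of 2 promoters and 3 peak centres are shown, because the peaks that hold them carry accessibility results given later. Promoters are 300 bases around a RefSeq start, most of them upstream, and peak centres are the middle 300 bases of a peak on the plus strand, all in GRCm38. NFIB belongs to the NFI factors, which bind TTGGC and GCCAA spaced by 5 bases and, more weakly, either run alone. Capitals mark the NFI half-site (TTGGC, or GCCAA on the other strand) and the E-box CAGCTG, a run that basic helix-loop-helix factors can bind. They show letters found, not sites bound. The Mcl1 promoter (chr3:95658471-95658770, plus strand) held 4 half-sites, the Bcl2 promoter (chr1:106714241-106714540, minus strand) 1, the Bcl2 intron peak (chr1:106629732-106630031) 2, the Bcl2l1 intron peak (chr2:152794365-152794664) 1 with 1 E-box, and the peak upstream of Bmf (chr2:118551787-118552086) 4, of which 2 overlap.
Mcl1 promoter: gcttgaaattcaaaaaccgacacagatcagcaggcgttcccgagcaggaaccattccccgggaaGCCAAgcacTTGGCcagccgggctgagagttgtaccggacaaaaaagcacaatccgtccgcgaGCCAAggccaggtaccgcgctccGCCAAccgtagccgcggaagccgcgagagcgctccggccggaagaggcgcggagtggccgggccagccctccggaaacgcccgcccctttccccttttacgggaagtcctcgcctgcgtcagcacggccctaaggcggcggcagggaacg
Bcl2 promoter: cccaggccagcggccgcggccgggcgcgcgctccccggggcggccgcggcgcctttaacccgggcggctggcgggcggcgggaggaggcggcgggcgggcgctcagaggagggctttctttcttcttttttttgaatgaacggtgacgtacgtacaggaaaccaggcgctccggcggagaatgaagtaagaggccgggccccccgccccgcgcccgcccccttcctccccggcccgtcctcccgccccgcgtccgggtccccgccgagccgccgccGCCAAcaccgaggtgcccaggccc
Bcl2 intron peak centre: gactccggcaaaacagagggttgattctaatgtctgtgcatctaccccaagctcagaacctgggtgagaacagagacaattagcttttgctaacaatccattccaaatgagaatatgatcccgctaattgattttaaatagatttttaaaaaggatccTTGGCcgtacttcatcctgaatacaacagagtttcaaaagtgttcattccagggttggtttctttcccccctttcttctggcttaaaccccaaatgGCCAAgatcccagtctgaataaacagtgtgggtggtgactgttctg
Bcl2l1 intron peak centre: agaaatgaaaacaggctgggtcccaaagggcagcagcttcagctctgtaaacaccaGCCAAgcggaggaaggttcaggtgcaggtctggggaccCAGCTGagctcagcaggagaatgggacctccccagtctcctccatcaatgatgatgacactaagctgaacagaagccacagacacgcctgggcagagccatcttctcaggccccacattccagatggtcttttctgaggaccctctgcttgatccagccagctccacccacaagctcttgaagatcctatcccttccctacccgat
Bmf upstream peak centre: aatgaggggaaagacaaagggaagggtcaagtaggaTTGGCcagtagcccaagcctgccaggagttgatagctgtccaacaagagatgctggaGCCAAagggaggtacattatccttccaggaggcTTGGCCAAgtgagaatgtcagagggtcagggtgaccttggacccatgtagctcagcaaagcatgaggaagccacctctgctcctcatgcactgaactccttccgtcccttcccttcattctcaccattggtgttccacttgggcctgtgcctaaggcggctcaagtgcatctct

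The half-site was found in 32 of the 54 member peak centres (59.3%) and in 50.6% of all 111664 peak centres. The spaced NFI motif was in 0 of 54 and in 0.10% of all centres. The AP-1 motif TGANTCA was in 11 of 54 (20.4%) against 23.7%, and the E-box in 11 of 54 (20.4%) against 22.7%, both strands being searched. Of 14 RefSeq promoters of 8 members, Bik having none in the table, 6 (42.9%) held a half-site against 46.7% of 32851 promoters, 4 (28.6%) an E-box against 16.3%, 0 an AP-1 motif against 7.81% and 0 the spaced NFI motif against 0.0365%. These shares rest on small numbers and were not tested.

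Among the guardians, Mcl1 rose in both mutants and Bcl2 fell in the NFIB mutant, while Bcl2l1 and Bcl2l2 were not called. Among the BH3-only genes, Bad rose in both mutants and Bcl2l11, Bid and Bmf were not called. Bik had too few counts to be tested. Thus 2 of 8 tested members were called in the CARM1 knockout against TKO, both higher, beside 38.8% of all 15514 genes tested (20.5% higher and 18.3% lower). In the NFIB mutant 3 of 8 were called, 2 higher and 1 lower, beside 45.8% of all genes (22.3% higher and 23.5% lower). The share of members called was therefore no larger than the background in either comparison. All 6 mutant libraries lay beyond all 3 TKO libraries for 2 of the 8 members, Mcl1 and Bad, beside 45.5% of all genes. Between the mutants, edgeR called 0 of the 8 members and 0% of all genes. At an unadjusted p under 0.05, 0 members and 1414 genes passed there, and DESeq2 called 0 members and 540 genes. When only the 6 libraries with Ptprc at or under 20 CPM were kept (3 TKO, 1 CARM1 knockout and 2 NFIB mutant libraries, a choice made after seeing the data), the spread of the lone CARM1 knockout library was taken from the other groups. Mcl1 in the CARM1 knockout and Bad in the NFIB mutant were called in that fit. The sizes of the other values were near those with all libraries, at 1.32 for Bad in the CARM1 knockout (adjusted p = 0.106), 0.78 for Mcl1 in the NFIB mutant (adjusted p = 0.0482) and -1.21 for Bcl2 in the NFIB mutant (adjusted p = 0.116). Without the third CARM1 knockout library, the one high in neuroendocrine markers, Mcl1 and Bad were called. Fibroblast markers summed to at least 9998 CPM in every mutant library and to at most 70.5 CPM in TKO. Both fits keep that difference, so they cannot tell genotype from cell type. The median log2 fold change of the 8 members was -0.13 in the CARM1 knockout and 0.10 in the NFIB mutant, against -0.03 and -0.05 over all genes. Scaling by totals alone moved the median of all genes to -0.30 and -0.37, and fold changes under that scaling are read relative to it.

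**Figure D1:**
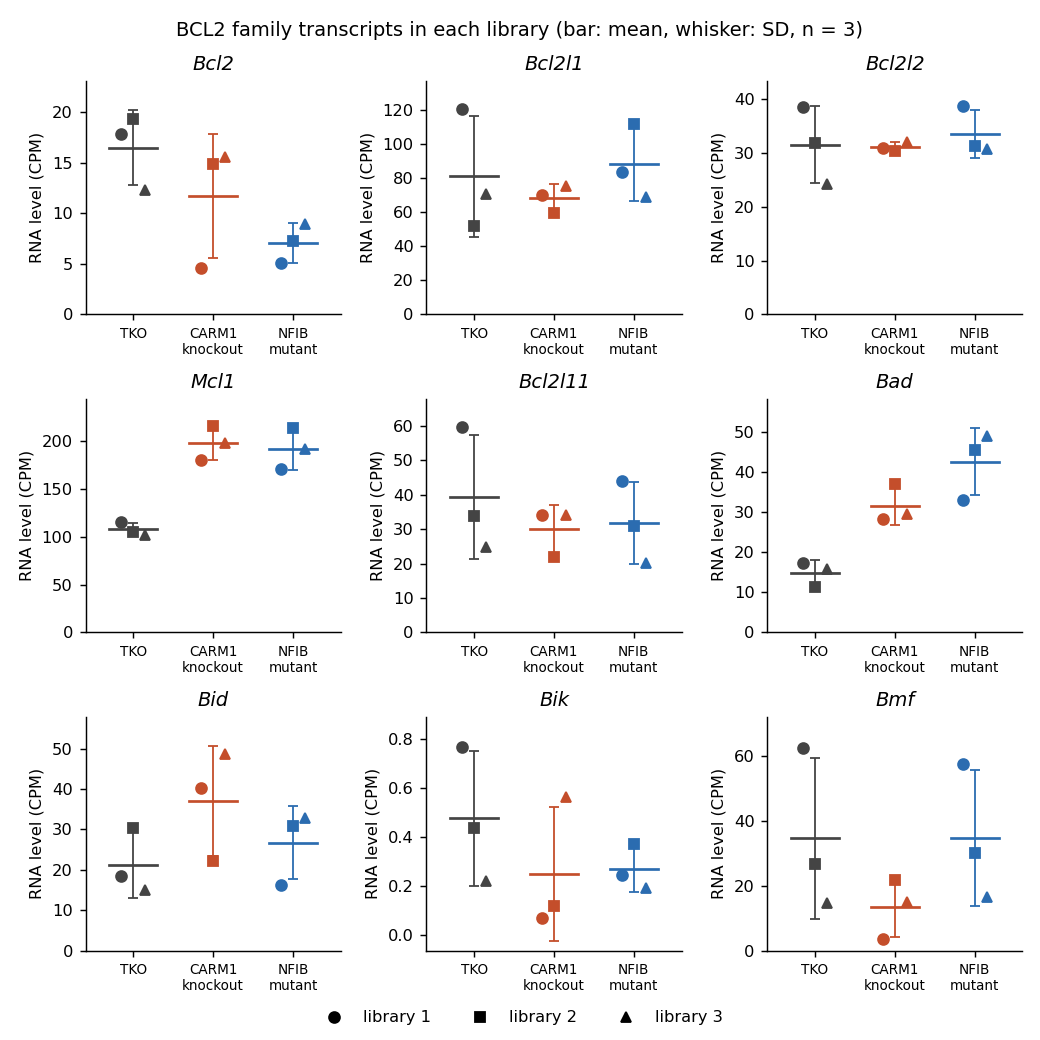
RNA level in CPM of each of the 9 members (vertical axes, scaled separately) in the 3 libraries of each genotype (horizontal axis). Points are libraries, bars the mean and whiskers the SD. Mcl1 and Bad are the members whose mutant libraries all sit above the TKO libraries, while the TKO libraries of Bmf spread from 14.6 to 62.4 CPM.

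MCL1, a short-lived guardian that cells renew continuously, had the most abundant transcript per length of the 9 members, with the union of exons as length. Mcl1 (ENSMUSG00000038612, chr3:95658788-95663176, plus strand, GRCm38) was at 116, 105 and 101 CPM in TKO, at 180, 216 and 197 CPM in the CARM1 knockout and at 170, 214 and 191 CPM in the NFIB mutant. The lowest mutant library lay well above the highest TKO library, and the mutants overlapped each other. The mean of 107 ± 7.29 CPM (SD, n = 3) in TKO rose to 198 ± 17.6 CPM in the CARM1 knockout, a log2 fold change of 0.88 (SE 0.15, adjusted p = 0.00416). In the NFIB mutant the mean was 192 ± 21.9 CPM, with a log2 fold change of 0.83 (SE 0.15, adjusted p = 0.00397). These sizes are close to the limit of 0.8. With libraries scaled by totals alone they were 0.60 and 0.50, both with an adjusted p under 0.1, against a median of all genes that was itself below 0. Without the second NFIB mutant library the value in that comparison was 0.75.

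BCL2, the founding guardian and the target of venetoclax, had the least abundant transcript per length of the 4 member guardians in all 3 genotypes. Bcl2 (ENSMUSG00000057329, chr1:106538178-106714274, minus strand) was at 17.8, 19.3 and 12.3 CPM in TKO, at 4.61, 14.9 and 15.5 CPM in the CARM1 knockout and at 5.04, 7.27 and 8.95 CPM in the NFIB mutant. All NFIB mutant libraries lay below all TKO libraries, whereas the CARM1 knockout spanned both. Bcl2 fell in the NFIB mutant from a mean of 16.5 ± 3.7 to 7.09 ± 1.96 CPM (SD, n = 3), a log2 fold change of -1.22 (SE 0.49, adjusted p = 0.0758). In the CARM1 knockout the mean was 11.7 ± 6.14 CPM and the log2 fold change -0.50 (SE 0.49, adjusted p = 0.442). Between the mutants the log2 fold change was 0.72 (SE 0.49, adjusted p = 0.699), so the mutants were not shown to differ. The call in the NFIB mutant did not hold without the first or the second TKO library (log2 fold change -1.15 and -1.09, adjusted p = 0.157 and 0.174), nor without the first, the second or the third NFIB mutant library (-1.02, -1.23 and -1.42, adjusted p = 0.190, 0.155 and 0.105). The size of the fall thus stayed near that with all libraries while the adjusted p passed 0.1.

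BCL-XL and BCL-W complete the member guardians. Bcl2l1 (ENSMUSG00000007659, chr2:152780668-152831728, minus strand) was at 121, 52.1 and 71 CPM in TKO, at 70.2, 59.8 and 75.6 CPM in the CARM1 knockout and at 83.7, 112 and 69.1 CPM in the NFIB mutant. The TKO libraries alone spanned the whole range, and the log2 fold changes were -0.25 (SE 0.32, adjusted p = 0.563) and 0.12 (SE 0.32, adjusted p = 0.787). Bcl2l2 (ENSMUSG00000089682, chr14:54883377-54888234, plus strand) was the steadiest member, at 38.6, 31.9 and 24.3 CPM in TKO, 30.9, 30.5 and 32.1 CPM in the CARM1 knockout and 38.7, 31.3 and 30.7 CPM in the NFIB mutant. Its log2 fold changes were -0.02 (SE 0.21, adjusted p = 0.945) and 0.09 (SE 0.21, adjusted p = 0.755), and the 3 groups overlapped. Bcl2l2 shares exons with Gm20521 on the same strand, so the counting could have set aside part of its reads as ambiguous.

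BAD couples growth factor signals to survival: when it is not phosphorylated it binds BCL2, BCL-XL and BCL-W. Bad (ENSMUSG00000024959, chr19:6941861-6951899, plus strand) was at 17.3, 11.2 and 15.9 CPM in TKO, at 28.2, 37.1 and 29.7 CPM in the CARM1 knockout and at 33.1, 45.6 and 49 CPM in the NFIB mutant. Every mutant library exceeded every TKO library. The mean rose from 14.8 ± 3.19 to 31.7 ± 4.79 CPM (SD, n = 3) in the CARM1 knockout, a log2 fold change of 1.09 (SE 0.25, adjusted p = 0.0126). It rose to 42.6 ± 8.35 CPM in the NFIB mutant, with a log2 fold change of 1.52 (SE 0.25, adjusted p = 0.00301). Bad was thus 2.14-fold and 2.87-fold higher by its means, the largest called rise among the members. The mutants did not differ by the test (log2 fold change -0.43, adjusted p = 0.632). Bad overlaps Gpr137, which lies on the opposite strand, and without strand in the counting, reads of the 2 genes cannot be told apart where they overlap.

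BIM binds every guardian and is a frequent mediator of drug-induced death. Bcl2l11 (ENSMUSG00000027381, chr2:128126038-128162547, plus strand) was at 59.6, 33.8 and 24.9 CPM in TKO, at 34, 21.8 and 34.2 CPM in the CARM1 knockout and at 44, 31 and 20.2 CPM in the NFIB mutant. The groups overlapped, with log2 fold changes of -0.39 (SE 0.40, adjusted p = 0.462) and -0.31 (SE 0.40, adjusted p = 0.544). BID is cut by caspase-8 and carries death receptor signals to the mitochondria. Bid (ENSMUSG00000004446, chr6:120891930-120916853, minus strand) was at 18.4, 30.3 and 14.9 CPM in TKO, at 40.3, 22.1 and 48.8 CPM in the CARM1 knockout and at 16.3, 31 and 32.9 CPM in the NFIB mutant. The second TKO library lay above the second CARM1 knockout library. The log2 fold change in the CARM1 knockout was 0.80 (SE 0.42, adjusted p = 0.161), and the gene was called without the second TKO library (1.15, adjusted p = 0.0979) or without the second CARM1 knockout library (1.07, adjusted p = 0.0977). Bid had a log2 fold change of 0.33 in the NFIB mutant (SE 0.41, adjusted p = 0.532). Bid overlaps the end of Bcl2l13, and part of its reads could be counted as ambiguous.

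BMF is held at the cytoskeleton by dynein light chain and released under stress such as loss of attachment. Bmf (ENSMUSG00000040093, chr2:118528757-118549687, minus strand) was the most variable member, at 62.4, 26.5 and 14.6 CPM in TKO, 3.45, 21.8 and 14.9 CPM in the CARM1 knockout and 57.5, 30 and 16.6 CPM in the NFIB mutant. Its log2 fold change was -1.37 (SE 0.79, adjusted p = 0.202) in the CARM1 knockout and 0.01 (SE 0.77, adjusted p = 0.996) in the NFIB mutant, and the groups overlapped. BIK, a BH3-only protein of the endoplasmic reticulum, was hardly expressed. Bik (ENSMUSG00000016758, chr15:83526862-83544634, plus strand) had 16, 10 and 5 counts in TKO, 1, 2 and 10 counts in the CARM1 knockout and 4, 6 and 3 counts in the NFIB mutant, and no fold change was taken from it.

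To compare genes with each other, CPM were divided by the union of exons in kb (RPKM). With the union of exons as length, the member guardians kept the order Mcl1, Bcl2l1, Bcl2l2 and Bcl2 by their means in all 3 genotypes. The longest Bcl2l1 transcript is 2568 bp against a union of 4586 bp, while both are 3418 bp for Mcl1. The order of Mcl1 and Bcl2l1 in TKO therefore depends on the length taken. Mcl1 was at 31.4 RPKM in TKO, 57.8 RPKM in the CARM1 knockout and 56.1 RPKM in the NFIB mutant, against 17.7, 14.9 and 19.2 RPKM for Bcl2l1. In TKO these neighbours were closest in the first library, where Bcl2l1 was at 26.4 RPKM. Bcl2l2 was at 7.08, 6.98 and 7.52 RPKM and Bcl2 at 1.80, 1.28 and 0.774 RPKM. The order of the BH3-only genes by their means was less settled and also depends on the length taken. In TKO, Bmf (6.57 RPKM), Bid (5.97), Bad (5.79) and Bcl2l11 (4.91) lay within the spread of Bmf alone, so their order is not resolved. In the mutants Bad came first, at 12.4 RPKM in the CARM1 knockout and 16.6 RPKM in the NFIB mutant, followed by Bid at 10.4 and 7.54 RPKM. Bik was last everywhere, at 0.156 to 0.298 RPKM.

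Shares within a library do not depend on scaling, but they do depend on the length taken for each gene. Mcl1 made up 47.8, 59.9 and 57.1% of the summed guardian RPKM in TKO, 69.9, 74.6 and 69.5% in the CARM1 knockout and 64.4, 66.0 and 70.9% in the NFIB mutant. Its share was higher in every mutant library than in any TKO library (exact two-sided permutation test, p = 0.1 for each mutant, the smallest that 3 libraries against 3 can give). Bcl2 made up 2.75, 4.11 and 2.59% in TKO, 0.666, 1.93 and 2.04% in the CARM1 knockout and 0.712, 0.837 and 1.24% in the NFIB mutant. Its share was lower in every mutant library (exact two-sided permutation test, p = 0.1 for each mutant). Bcl2l11 made up 23.4, 18.8 and 18.9% of the BH3-only RPKM in TKO, 15.5, 9.83 and 13% in the CARM1 knockout and 16.1, 10.6 and 7.35% in the NFIB mutant, and these too did not overlap (exact two-sided permutation test, p = 0.1 for each mutant). The summed BH3-only RPKM stood to the summed guardian RPKM at a ratio of 0.448, 0.437 and 0.316 in TKO, 0.362, 0.327 and 0.395 in the CARM1 knockout and 0.442, 0.384 and 0.434 in the NFIB mutant. This ratio overlapped between all genotypes (exact two-sided permutation test, p = 0.5 and 0.9 against TKO and 0.2 between the mutants). No share can reach a p under 0.1 with 3 libraries against 3, before any correction for the number of tests. Shares of the same sum are also not independent, since a rise of Mcl1 or Bad lowers the shares of the other genes. The levels of Bcl2 in the CARM1 knockout and of Bcl2l11 in either mutant were not called.

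**Figure D2:**
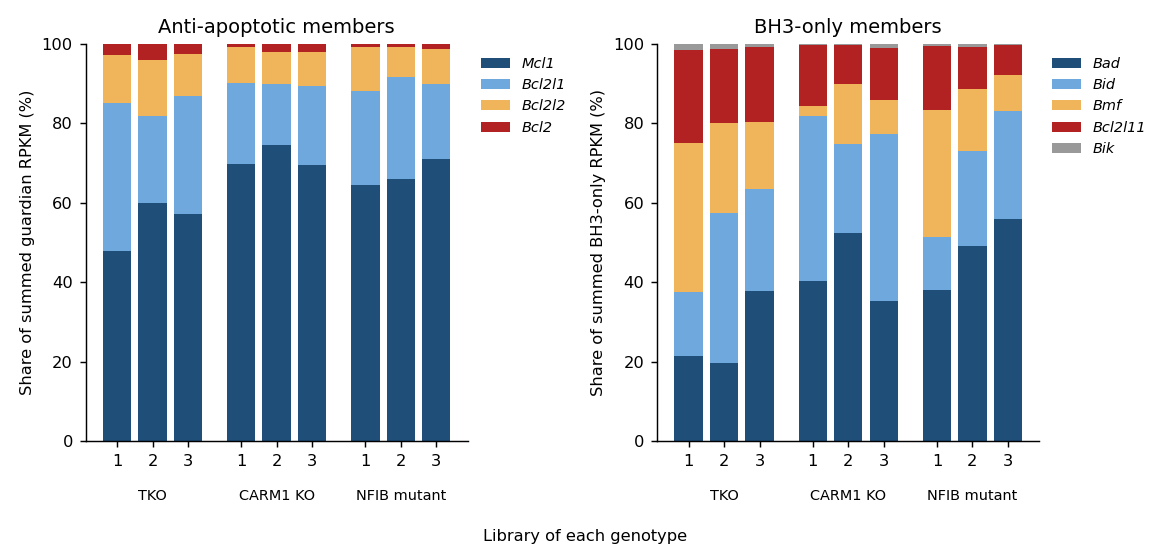
Stacked bars give the share in percent of each member in the summed RPKM of the guardians (left) and of the BH3-only genes (right), 1 bar for each of the 9 libraries, grouped by genotype. The Mcl1 segment is at most 59.9% in TKO and at least 64.4% in the mutants, and the Bcl2 segment at most 2.04% in the mutants.

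The genes most like Bcl2 over the 9 RNA libraries, by Pearson correlation of log2 CPM among 8035 expressed genes, were Cux1 (r = 0.908), H1fx (r = 0.902) and Anapc5 (r = 0.90). These libraries share the 3 genotypes, and the correlations are given as a description.

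Other genes of the pathway were taken from lists of 40 genes, of which 37 could be tested. In the CARM1 knockout 13 were higher and 3 lower, and in the NFIB mutant 11 were higher and 2 lower. These calls were 43.2% and 35.1% of the tested genes, beside 38.8% and 45.8% of all genes. Between the mutants edgeR called 0, with 1 gene, Casp9, at an unadjusted p under 0.05. DESeq2 called 1, Bcl2a1a, which had too few counts for the edgeR test and is not among the 37. Both genes were named after their values were seen. The effectors were unequal. BAK, which sits in the mitochondrial outer membrane under the control of MCL1 and BCL-XL, had Bak1 at 12.8, 13.8 and 13.1 CPM in TKO, 110, 116 and 90.7 CPM in the CARM1 knockout and 66.9, 91.3 and 176 CPM in the NFIB mutant. Bak1 rose by a log2 fold change of 3.0 (SE 0.35, adjusted p = 0.00124) and 3.07 (SE 0.35, adjusted p = 0.000904), without any overlap with TKO. Bax, whose protein waits in the cytosol, was at 71.3, 59.7 and 68 CPM in TKO, 100, 89.6 and 96.8 CPM in the CARM1 knockout and 68.1, 95 and 75.6 CPM in the NFIB mutant. It was not called, with log2 fold changes of 0.52 (adjusted p = 0.0393) and 0.26 (adjusted p = 0.222), the second of which was -0.07 when libraries were scaled by totals alone. Bok, the third effector, was not called either (-0.73, adjusted p = 0.343, and -0.67, adjusted p = 0.371).

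Of the 3 other BH3-only genes, 1 was lower in each mutant. Hrk, a neuronal BH3-only gene, was at 72.1, 44.4 and 48.7 CPM in TKO, at 0, 0.117 and 2.3 CPM in the CARM1 knockout and at 0.425, 0 and 0 CPM in the NFIB mutant. It fell in both (adjusted p = 0.027 and 0.0109), to 7 counts or fewer in 5 mutant libraries and to 41 counts in the third CARM1 knockout library. That library was also the mutant library with the highest neuroendocrine marker sum, and the part of these markers in the fall of this neuronal gene was not tested. Bbc3 (PUMA) and Pmaip1 (NOXA), known targets of p53, were not called. Of the 4 other guardians only Bcl2a1d had enough counts to be tested, and it was called in the CARM1 knockout (0.144, 0 and 0 CPM in TKO, 2.78, 0.408 and 6.28 CPM in the CARM1 knockout). Reads of the near-identical Bcl2a1 copies may have been split, and its highest CARM1 knockout libraries were those with the most Ptprc, a leukocyte marker, at 29.1 and 57.6 CPM against 1.86 CPM in the other. The part of leukocytes in this call was not tested.

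Death receptor genes rose together: 7 of 7 were higher in the CARM1 knockout and 6 of 7 in the NFIB mutant, beside 20.5% and 22.3% of all genes called higher, with a median log2 fold change of 2.26 and 2.79 against -0.03 and -0.05 over all genes. The list was chosen with earlier results of these data known, so these counts are given as a description. Fas was at 0.0479, 0.0873 and 0.795 CPM in TKO, 21.4, 9.03 and 22.6 CPM in the CARM1 knockout and 13.1, 14.8 and 5.21 CPM in the NFIB mutant (adjusted p = 0.0074 and 0.00838). Tnfrsf10b, the mouse TRAIL receptor, went from 1.77, 1.88 and 2.3 CPM in TKO to 44, 59.7 and 23.2 CPM and to 40.7, 39.7 and 66.3 CPM (adjusted p = 0.00059 and 0.000419). Tnfrsf1a, a TNF receptor, was at 32.4 to 39.1 CPM in TKO, 203 to 238 CPM in the CARM1 knockout and 262 to 270 CPM in the NFIB mutant (adjusted p = 0.000163 and 0.000123). None of the 3 receptors had a mutant library within the range of TKO. Cflar, Ripk1 and Tradd were also higher in both, and Fadd was called in the CARM1 knockout, with 0.84 there and 0.61 (adjusted p = 0.0336) in the NFIB mutant. Casp8, the caspase that cuts BID, was the 1 gene called among 7 partners of the BH3-only proteins. It was at 3.55, 1.22 and 0.839 CPM in TKO, 45.7, 39.6 and 46.4 CPM in the CARM1 knockout and 40.7, 40.9 and 50.9 CPM in the NFIB mutant, a log2 fold change of 4.55 (adjusted p = 0.00131) and 4.56 (adjusted p = 0.00103). These genes are also expressed by stromal and immune cells. The fibroblast markers moved in the same libraries, and their part in the rise was not tested. With only the libraries low in Ptprc, which leaves 1 CARM1 knockout library, the log2 fold change of Fas there was 4.83 (adjusted p = 0.108).

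Among 4 genes that control MCL1 turnover, Fbxw7, a ubiquitin ligase subunit that marks MCL1 for destruction, was the 1 called. It was at 22.5, 29.3 and 37.9 CPM in TKO, 15.2, 18.3 and 17.3 CPM in the CARM1 knockout and 14.3, 13.4 and 12.5 CPM in the NFIB mutant. Its log2 fold change was -0.82 (SE 0.24, adjusted p = 0.0304) and -1.16 (SE 0.24, adjusted p = 0.00737). The call in the CARM1 knockout did not hold without the third TKO library (-0.58), or without the first (-0.74, adjusted p = 0.108) or the third CARM1 knockout library (-0.80). Of 6 apoptosome and caspase genes, 1 was higher and 1 lower in the CARM1 knockout and 1 was higher in the NFIB mutant. Casp6, an executioner caspase, was at 3.45, 0.568 and 2.6 CPM in TKO and rose to 26.6, 43.6 and 19.5 CPM and to 28.2, 29.4 and 26.6 CPM (adjusted p = 0.00473 and 0.00403). The other call was Casp2, lower in the CARM1 knockout (-1.12, adjusted p = 0.0205), which was not called between the mutants. Of the 6 inhibitor of apoptosis genes and their antagonists, 2 were higher in each mutant. Birc3 (cIAP2) was at 0.132 to 0.575 CPM in TKO, 20.6 to 69.7 CPM in the CARM1 knockout and 33.1 to 64.8 CPM in the NFIB mutant (adjusted p = 0.00106 and 0.00077). Htra2, a mitochondrial protease that antagonises the inhibitors, was at 33, 27.2 and 15.8 CPM in TKO, 74.1, 64.3 and 63.1 CPM in the CARM1 knockout and 49, 74 and 68.2 CPM in the NFIB mutant (adjusted p = 0.00903 and 0.00879). Genes that promote death (Fas, Casp8, Bak1) and genes that restrain it (Cflar, Birc3) thus both stood among the higher calls.

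**Figure D3:**
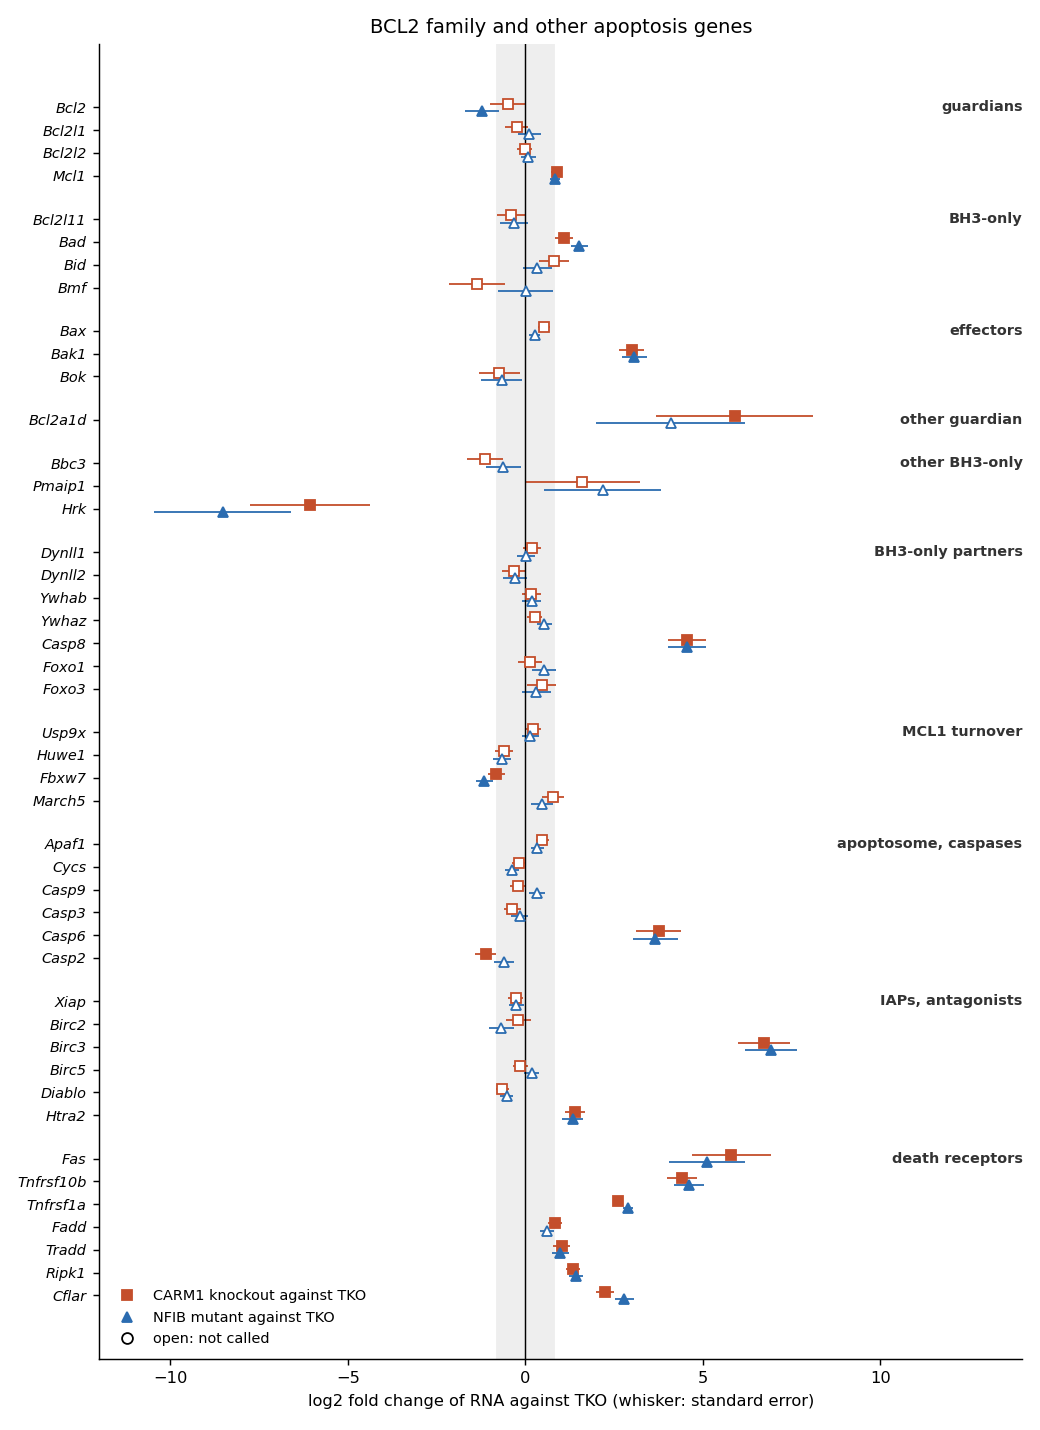
Log2 fold change of RNA against TKO (horizontal axis, whiskers are standard errors) for the 8 tested members and 37 other genes of the pathway lists, ordered by role. Squares are the CARM1 knockout and triangles the NFIB mutant, filled symbols were called and the grey band marks sizes under 0.8. Death receptor genes, Bak1 and Casp8 lie to the right and Hrk far to the left, while most members lie in or near the band.

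Accessibility around the 9 genes was compared between the same genotypes. Of the 54 peaks, 13 lay at Bcl2, 15 at Bcl2l1, 1 at Bcl2l2, 5 at Mcl1, 4 at Bcl2l11, 2 at Bad, 5 at Bid, 2 at Bik and 7 at Bmf. In the CARM1 knockout 31 peaks (57.4%) were called, 22 higher (40.7%) and 9 lower (16.7%), beside 71.1% of the 111116 peaks tested (38.7% higher and 32.4% lower). In the NFIB mutant 33 (61.1%) were called, 24 higher (44.4%) and 9 lower (16.7%), beside 73.3% of all peaks (39.3% higher and 34% lower). All 6 mutant libraries lay beyond all 3 TKO libraries at 29 of the 54 peaks, 21 higher and 8 lower, beside 61.7% of all peaks. Calls were thus not more frequent at the members than in the whole table. Between the mutants edgeR called 0 of 54 peaks and 0% of all peaks, with 1 and 6813 at an unadjusted p under 0.05 and 0 and 1060 called by DESeq2. The median log2 fold change of the member peaks was 0.58 and 0.70, and that of all peaks 0.22 in each comparison. Under scaling by totals alone the median of all peaks was 0.79 in each, and the calls at the members became 29 higher and 5 lower in the CARM1 knockout and 31 higher and 4 lower in the NFIB mutant.

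Of the 14 peaks within 1000 bp of an annotated start of their own gene, 2 were higher and 3 lower in the CARM1 knockout. In the NFIB mutant 2 were higher and 4 lower. The median log2 fold changes were -0.20 and -0.21. Among all 25120 tested peaks that near to a start of any gene, 22.3% were higher and 34.5% lower in the CARM1 knockout and 22.7% and 38.4% in the NFIB mutant, with medians of -0.29 and -0.34. Of the 40 other peaks, 20 were higher and 6 lower in the CARM1 knockout and 22 higher and 5 lower in the NFIB mutant, with medians of 1.05 and 1.27. Among the other 85996 peaks of the table, 43.5% were higher and 31.8% lower in the CARM1 knockout and 44.1% and 32.7% in the NFIB mutant, with medians of 0.65 and 0.68. The split of all peaks used starts of any gene, and that of the member peaks starts of their own gene only. A Bcl2 intron peak near the start of Mir3473f thus stands among the 40 others. Lower medians near starts than elsewhere were seen in the whole table as well as at the members, and the difference between the sets of peaks has no test.

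**Figure D4:**
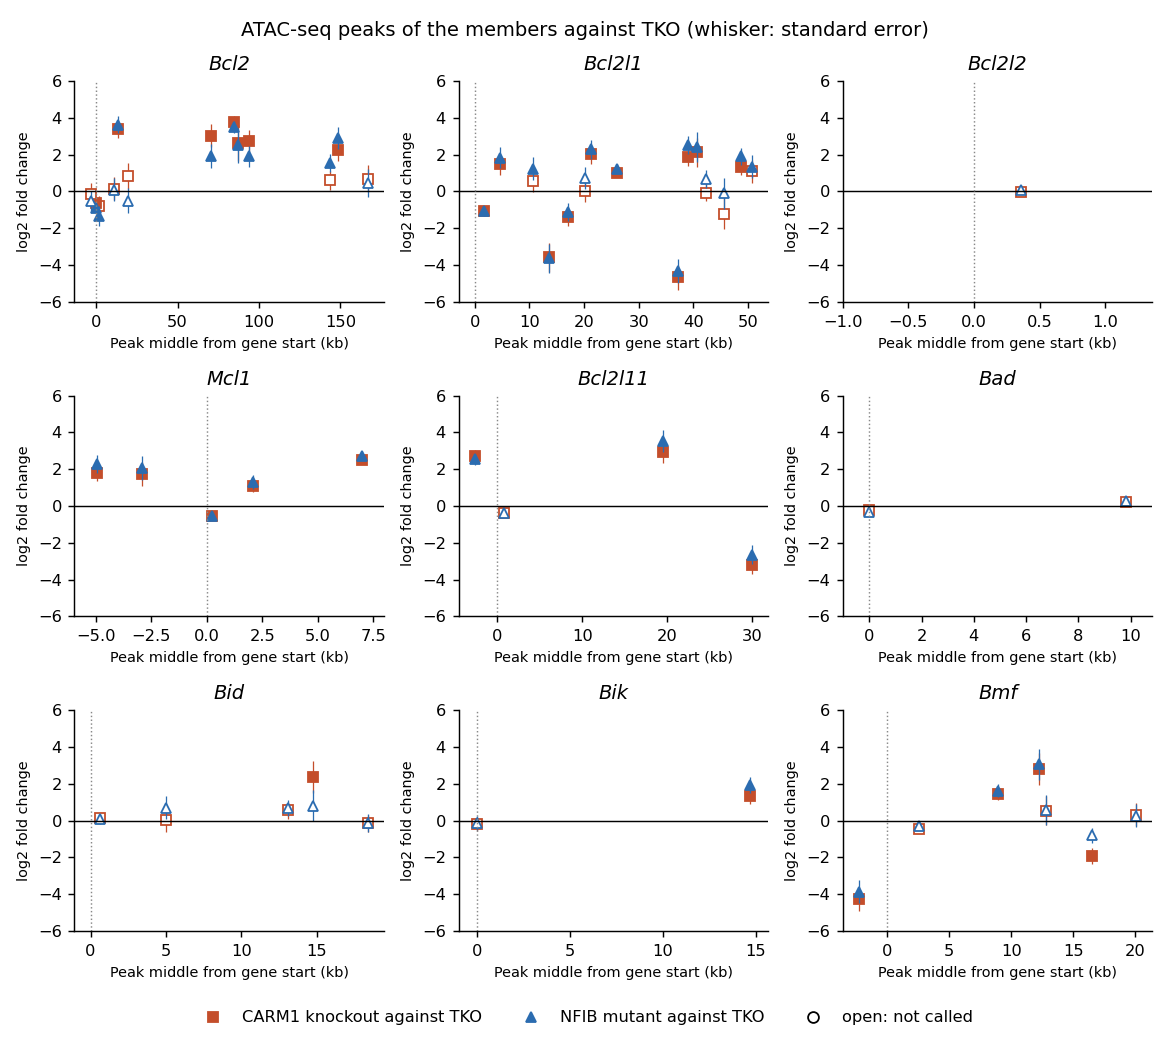
Log2 fold change of each ATAC-seq peak against TKO (vertical axis, whiskers are standard errors) by the distance of its middle from the gene start in kb (horizontal axis), 1 panel per gene. Squares are the CARM1 knockout, triangles the NFIB mutant, and filled symbols were called. At Mcl1, Bcl2 and Bcl2l1 the peak nearest the start lies below 0 (at Mcl1 not under scaling by totals alone) while most called peaks away from it lie above, and Bad and Bcl2l2 have no called peak.

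All 5 Mcl1 peaks were called in both mutants, 4 higher and 1 lower. The peak over the start (chr3:95657957-95660077), which holds the promoter printed above, was at 42.6, 40.9 and 52 CPM in TKO, 25.9, 36.6 and 32.5 CPM in the CARM1 knockout and 27.1, 36.4 and 29.4 CPM in the NFIB mutant. With TMM factors it fell by 0.51 (SE 0.18, adjusted p = 0.0285) and by 0.54 (SE 0.18, adjusted p = 0.0213) on the log2 scale, although the transcript rose. At that scaling, all tested peaks within 1000 bp of a start of any gene had medians of -0.29 and -0.34. With libraries scaled by totals alone these values were 0.05 and 0.01, against a median of 0.79 over all peaks. They were -0.16 and -0.18 when totals left out the peaks that hold over 0.5% of the counts of a library, and -0.36 and -0.38 among peaks with at least 10 counts in every library, neither of them called. The calls also did not hold without the third TKO library (-0.39 and -0.43), the first CARM1 knockout library (-0.38) or the first NFIB mutant library (-0.45). The opposite direction was seen at a long peak of 7934 bp that begins in the last part of the gene and reaches beyond it (chr3:95661816-95669749). It was at 7.16, 8.52 and 9.08 CPM in TKO, 43.8, 53.5 and 42.3 CPM in the CARM1 knockout and 47, 54.2 and 61.1 CPM in the NFIB mutant, with no overlap. Its means were 5.63-fold and 6.55-fold higher, log2 fold changes of 2.49 (SE 0.18, adjusted p = 9.75e-06) and 2.71 (SE 0.18, adjusted p = 6.46e-06). The 3 smaller Mcl1 peaks, 2 upstream and 1 in an exon, were at 0.0926 to 1.65 CPM in TKO and 0.895 to 4.66 CPM in the mutants.

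At Bcl2, 6 peaks were higher and 1 lower in the CARM1 knockout, and 7 higher and 2 lower in the NFIB mutant. The start-site peak (chr1:106713428-106715458) was at 39.1, 45.2 and 34 CPM in TKO, 20, 27.1 and 30.6 CPM in the CARM1 knockout and 17.5, 24.5 and 22.6 CPM in the NFIB mutant. At this scaling all mutant libraries lay below TKO, with log2 fold changes of -0.61 (SE 0.21, adjusted p = 0.0235) and -0.87 (SE 0.21, adjusted p = 0.00384). Under scaling by totals alone they were -0.01 and -0.28, and under totals without the largest peaks -0.23 and -0.49, none of them called. Among peaks with at least 10 counts the value in the CARM1 knockout was -0.45 and not called, and the call in the CARM1 knockout did not hold without the second TKO library (-0.50) or the first CARM1 knockout library (-0.45). Among the peaks that reached a mean of 3 log2 CPM in 1 genotype, the largest mean rise over both mutants was in the long intron, 84393 bp from the gene start (chr1:106628826-106630936). There the counts were at 1.4, 2.07 and 3.42 CPM in TKO, 31.1, 35.9 and 26.7 CPM in the CARM1 knockout and 21.2, 25.4 and 29.8 CPM in the NFIB mutant. The means were 13.6-fold and 11.1-fold higher (log2 fold change 3.77, SE 0.33, adjusted p = 2.38e-05, and 3.48, SE 0.32, adjusted p = 2.83e-05). A weaker intron peak rose by 3.40 and 3.64 on the log2 scale (adjusted p = 0.000223 and 0.000142) to means of 3.45 and 4.07 CPM, more than the former in the NFIB mutant. The other Bcl2 peak lower in the NFIB mutant (chr1:106711885-106712956) has its middle 1854 bp into the gene. It lies within 1000 bp of an annotated start and was counted as a start-site peak. Its mean was 4.91 CPM in TKO and 1.96 CPM in the NFIB mutant, with overlapping libraries. The called intron peaks of Bcl2 farther from its annotated starts were all more accessible in the mutants. In these its transcript was lower (NFIB mutant) or not called (CARM1 knockout).

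**Figure D5:**
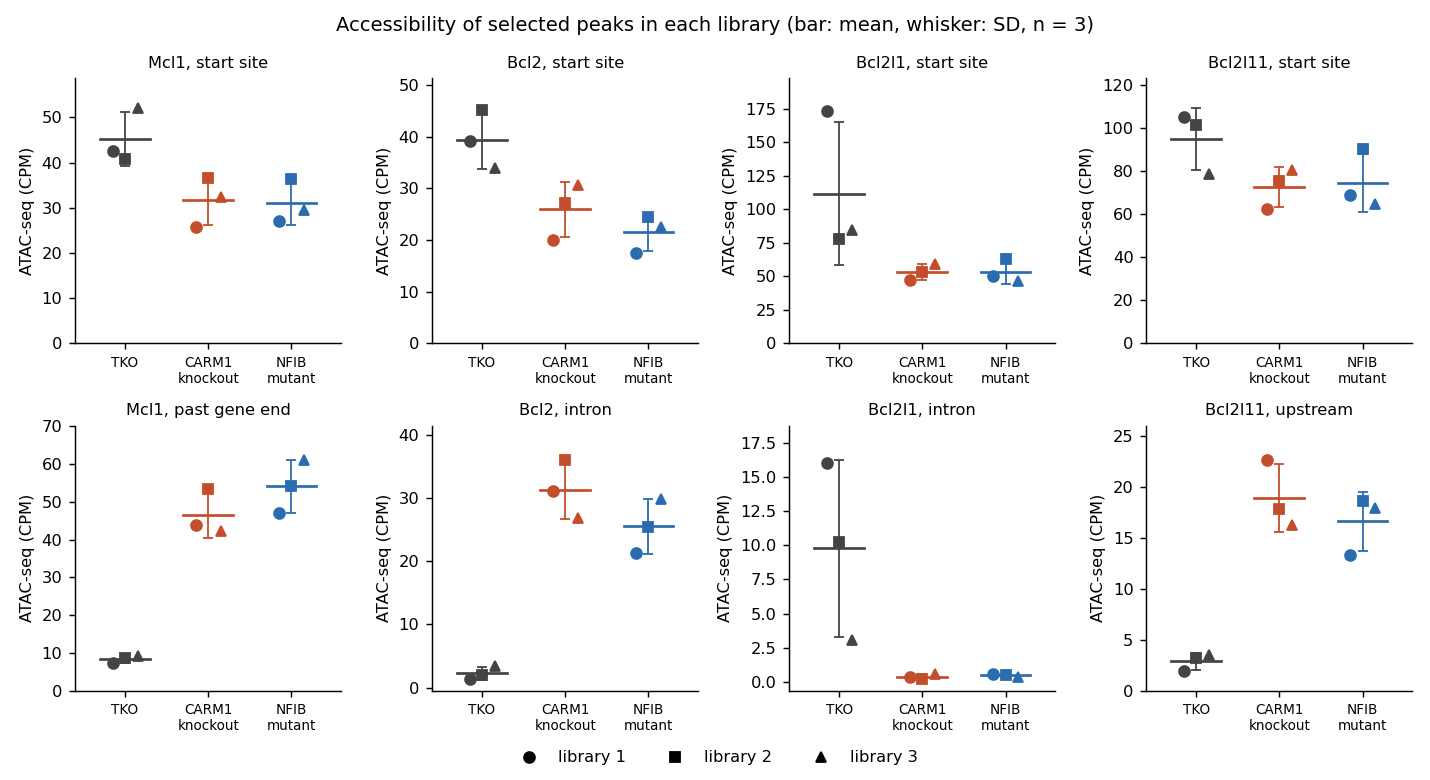
ATAC-seq level in CPM (vertical axes, scaled separately) of the start-site peak (top) and of the peak with the largest named change (bottom) at Mcl1, Bcl2, Bcl2l1 and Bcl2l11, for the 3 libraries of each genotype. Points are libraries, bars the mean and whiskers the SD. The start-site peaks of Mcl1, Bcl2 and Bcl2l1 are lower in all mutant libraries (under scaling by totals alone this does not hold for any of the 3), while the bottom peaks rise except at Bcl2l1, where the intron peak falls from at least 3.08 CPM to at most 0.605 CPM.

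Bcl2l1 had peaks in both directions, 6 higher and 4 lower in the CARM1 knockout and 8 higher and 4 lower in the NFIB mutant, while its transcript was not called. The start-site peak (chr2:152827741-152832287) was at 173, 77.5 and 84.6 CPM in TKO, 47.3, 53.5 and 59.5 CPM in the CARM1 knockout and 50.2, 63 and 46.5 CPM in the NFIB mutant. It fell by 1.07 on the log2 scale in each mutant (SE 0.27, adjusted p = 0.00586 and 0.00538), the first TKO library being far above the others. Without that library the values were -0.60 and -0.61 and still called. Under scaling by totals alone the values were -0.48 and -0.50 and not called. An intron peak 37214 bp from the start (chr2:152794138-152794891) was at 16, 10.2 and 3.08 CPM in TKO, 0.336, 0.211 and 0.605 CPM in the CARM1 knockout and 0.598, 0.481 and 0.392 CPM in the NFIB mutant. It nearly closed in the mutants, with log2 fold changes of -4.67 (SE 0.68, adjusted p = 0.000317) and -4.32 (adjusted p = 0.000385). A neighbouring intron peak (chr2:152791954-152793634) rose instead, from 3.44, 1.02 and 2.2 CPM in TKO to 7.34, 5.84 and 11.4 CPM and to 11.7, 16.8 and 9.81 CPM (log2 fold change 1.88, adjusted p = 0.00555, and 2.53, adjusted p = 0.00121). At Bcl2l2 the 1 peak was at 21.7, 16.2 and 14.7 CPM in TKO, 18.1, 19.1 and 15.2 CPM in the CARM1 knockout and 16.8, 20.7 and 17.5 CPM in the NFIB mutant, with no call and overlapping groups.

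The BH3-only genes differed from each other in accessibility. Both Bad peaks were not called, although the transcript rose. The peak over the start, shared with Gpr137, was at 53.1, 50.9 and 25.9 CPM in TKO, 30.6, 40.4 and 40 CPM in the CARM1 knockout and 32.8, 39.3 and 33.4 CPM in the NFIB mutant. The peak at another annotated start of Bad had log2 fold changes of 0.24 (adjusted p = 0.295) and 0.27 (adjusted p = 0.235), and was called higher when libraries were scaled by totals alone (0.85 and 0.87) or by totals without the largest peaks (0.63 and 0.67). Both peaks overlapped between the groups.

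At Bcl2l11, 2 of 4 peaks were higher and 1 lower in each mutant. A peak 2596 bp before the gene start (chr2:128122128-128124757), which lies within the neighbouring Acoxl, was at 1.91, 3.18 and 3.5 CPM in TKO, 22.6, 17.8 and 16.3 CPM in the CARM1 knockout and 13.3, 18.6 and 18 CPM in the NFIB mutant. It rose without overlap, by 2.72 (SE 0.31, adjusted p = 8.25e-05) and 2.53 (adjusted p = 9.85e-05) on the log2 scale. The start-site peak was at 105, 101 and 78.8 CPM in TKO, 62.5, 75.4 and 80.5 CPM in the CARM1 knockout and 68.9, 90.2 and 64.9 CPM in the NFIB mutant, under the size limit with -0.39 (adjusted p = 0.0617) and -0.35 (adjusted p = 0.0832). It passed at -0.50 without the third TKO library in the CARM1 knockout, and at -0.51 without the second NFIB mutant library in the NFIB mutant. An intron peak fell from 8.41, 5.28 and 4.6 CPM in TKO to 1.01, 0.365 and 0.653 CPM and to 1.11, 1.13 and 0.687 CPM. Changes of opposite sign therefore met at a gene whose transcript was not called.

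Bmf likewise gained and lost peaks. The peak 2249 bp before its start (chr2:118551586-118552287), whose centre is printed above, was at 5.89, 2.75 and 3.46 CPM in TKO, 0.129, 0.115 and 0.387 CPM in the CARM1 knockout and 0.209, 0.337 and 0.275 CPM in the NFIB mutant. It fell, with log2 fold changes of -4.25 (adjusted p = 0.000341) and -3.86 (adjusted p = 0.000448). An intron peak rose from 4.33, 3.12 and 8.11 CPM to 12.5, 15.3 and 14.5 CPM and to 18.1, 14.6 and 15.3 CPM (adjusted p = 0.00409 and 0.00209). The start-site peak was at 81.3, 85.1 and 62.4 CPM in TKO, 52.1, 60.6 and 53.2 CPM in the CARM1 knockout and 67, 65.3 and 54.3 CPM in the NFIB mutant, under the size limit (-0.46, adjusted p = 0.0193, and -0.30, adjusted p = 0.102). In the CARM1 knockout it passed without the third TKO library (-0.58) or the second CARM1 knockout library (-0.53). Another intron peak was called lower in the CARM1 knockout (-1.93, adjusted p = 0.00263) and not in the NFIB mutant (-0.78, adjusted p = 0.109), and was the 1 member peak at an unadjusted p under 0.05 between the mutants.

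At Bid, 1 intron peak of 5 was higher in the CARM1 knockout and none was called in the NFIB mutant. The start-site peak was at 41.8, 49.4 and 24 CPM in TKO, 37.6, 36.7 and 51.6 CPM in the CARM1 knockout and 31, 43.8 and 47.4 CPM in the NFIB mutant, with overlapping groups. At Bik the peak over the gene start was not called, while a peak at another annotated start rose from 1.53, 1.14 and 2.24 CPM in TKO to 4.81, 4.3 and 3.34 CPM and to 5.38, 4.33 and 9.14 CPM (log2 fold change 1.34, adjusted p = 0.0195, and 1.94, adjusted p = 0.00315). The transcript stayed near the detection limit in all genotypes. Whether the cell type markers described for the RNA moved with these peaks was not tested.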

How the data were processed

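RNA-seq and ATAC-seq libraries of 3 genotypes were compared, with 3 libraries per genotype and assay. For RNA-seq the authors used trim-galore and hisat2 on mm10 (GRCm38) and deposited raw gene counts from htseq-count. For ATAC-seq the authors mapped reads with Bowtie2, removed duplicates with Picard, called peaks with MACS2 by the methods (Genrich by the processing notes) and deposited raw counts on 1 merged peak set, made with featureCounts 1.6.3 per the file header. Whether the RNA counting used strand is not given in the sources used here. The column names C, KO and N stand for TKO, CARM1 knockout and NFIB mutant libraries, by their match to the labels. The 5 htseq-count summary entries were left out. Reads in no gene were 10.0 to 12.2% in TKO and 3.65 to 5.17% in the mutants. The TMM factors for RNA were 1.09 to 1.19 in TKO and 0.891 to 1.00 in the mutants. For ATAC-seq they were 0.680 to 0.880 and 1.09 to 1.21. None of these ranges overlap, so these library differences cannot be told apart from genotype in the comparisons with TKO.

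Counts were fitted in R 4.3.3 with edgeR 4.0.16 (TMM, filterByExpr, robust quasi-likelihood, all 9 libraries of an assay in 1 model), with DESeq2 1.42.0 as an alternative. Calls used the study's thresholds, namely 0.1 for the adjusted p with a size of at least 0.8 (genes) or 0.5 (peaks) in log2 fold change. The study scaled its ATAC-seq depth on start-site peaks of uniformly expressed genes, a scaling that was not repeated here. RPKM used the union of exons. Shares were compared by exact permutation over libraries (Python 3.11.15, numpy 2.4.6, pandas 2.3.3). The labels name 3 independent animals per genotype. A member peak overlapped the interval from 5000 bp upstream to the gene end by at least 1 bp. Named were all 9 members and, per pathway list, up to 3 genes called the same way in both mutants without overlap with TKO, with Bax, Bak1 and Bok in any case. For each member the start-site peak was named and, among peaks with a mean of at least 3 log2 CPM in the highest genotype, called the same way in both mutants and not overlapping TKO, those with the largest rise and fall of the mean log2 fold change. Other member peaks in the text were chosen after their values were seen. Members and lists were chosen with earlier results of these data known. Some listed genes are not reported here and are left out of the list counts and sums. The scripts were tested on simulated data. Alternatives changed the scaling, the low-count filter, the thresholds or the tool, added a block for the replicate number, kept only the genotypes compared or the libraries low in Ptprc, or left out a library.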

Additional observations from a re-analysis of the deposited data

How the results depend on the processing

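Depth limits Bik, and 3 libraries per genotype limit every share to a p of 0.1 or more. Of the called RNA results, Bad in the NFIB mutant kept its call under all 18 alternatives and Bad in the CARM1 knockout under 17, Mcl1 under 16 (CARM1 knockout) and 13 (NFIB mutant), and Bcl2 in the NFIB mutant under 10. The call of Bcl2 was lost without the filter on low counts (adjusted p = 0.121), at the stricter thresholds, with only libraries low in Ptprc (adjusted p = 0.116) and without single libraries. The cause was not tested. Of the members, 1 was called in the CARM1 knockout under scaling by totals alone, at the stricter thresholds (adjusted p under 0.05 and a log2 fold change of at least 1) or with only libraries low in Ptprc. In the NFIB mutant 1 was called at the stricter thresholds, without NFIB mutant replicate 2 or with only libraries low in Ptprc. Leaving out 1 library gave 71757 to 80157 and 75545 to 82141 called peaks and 26 to 34 and 29 to 32 called member peaks.

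Over all features, 2666 genes were called in the CARM1 knockout with only libraries low in Ptprc (fewer libraries). With at least 10 counts in every library (fewer features tested), 4520 genes were called in the NFIB mutant, and 38831 and 40676 peaks in the CARM1 knockout and NFIB mutant, with 19 member peaks in the former. Between the mutants there were 5 genes and 8 peaks with at least 10 counts, 540 genes and 1060 peaks by DESeq2, 7 peaks under totals alone, 16 peaks with only the genotypes compared, and 0 to 2 genes and 0 to 50 peaks with a library left out. Higher calls went from 52.9 to 39.4% (CARM1 knockout) and 48.7 to 35.8% (NFIB mutant) of RNA calls under totals alone, and from 54.4 to 65.9% and 53.6 to 64.3% of ATAC-seq calls.

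The replicate number did not pair the samples, since correlations of same-numbered deviations were -0.297 to 0.118 for RNA and -0.142 to 0.118 for ATAC-seq. With the replicate block, 5485 genes and 76648 peaks were called in the CARM1 knockout, 6508 and 79377 in the NFIB mutant and 0 and 0 between them, and the members called numbered 2 and 3 genes and 31 and 31 peaks.

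Sign changes of fold changes fell on values that were not called, except at the Mcl1 start-site peak, where log2 fold changes became 0.0502 and 0.00675 under totals alone. For RNA in the CARM1 knockout, Bcl2l2 became 0.0205 without the filter and 0.00393 with the replicate block. In the NFIB mutant under totals alone Bcl2l1 became -0.22, Bcl2l2 -0.23, Bmf -0.30 and Bax -0.0732, Bcl2l1 -0.0556 with only libraries low in Ptprc, and Bmf -0.0128 with DESeq2 size factors, -0.0448 with at least 10 counts and -0.00837 with DESeq2. With a library left out, values in the CARM1 knockout ranged from -0.49 to 0.17 for Bcl2l1, -0.14 to 0.16 for Bcl2l2 and -0.60 to 0.0478 for Bcl2l11. NFIB mutant values ranged from -0.12 to 0.53 for Bcl2l1, -0.0443 to 0.26 for Bcl2l2, -0.61 to 0.12 for Bcl2l11 and -0.56 to 0.76 for Bmf.

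For peaks under totals alone, values became 0.58 (Bcl2l2, CARM1 knockout), 0.21 and 0.23 (Bcl2l11 start), 0.45 and 0.48 (Bik peak 1) and 0.13 and 0.29 (Bmf start). Under totals without the largest peaks they were 0.37 (Bcl2l2, CARM1 knockout), 0.0375 (Bcl2l11 start, NFIB mutant), 0.23 and 0.30 (Bik peak 1) and 0.10 (Bmf start, NFIB mutant). With DESeq2 size factors and with DESeq2 they were -0.0890 and -0.0840 (Bcl2l2, NFIB mutant), -0.0574 and -0.0515 (Bid start, CARM1 knockout) and -0.0671 and -0.0612 (Bid start, NFIB mutant). With at least 10 counts they were 0.15 (Bcl2l2, CARM1 knockout) and 0.0585 (Bik peak 1, NFIB mutant). With a library left out, CARM1 knockout values ranged from -0.11 to 0.17 (Bcl2l2), -0.12 to 0.35 (Bid start) and -0.45 to 0.0836 (Bik peak 1), and NFIB mutant values from -0.0435 to 0.24, -0.16 to 0.31 and -0.40 to 0.14. The Bcl2l11 share between the mutants ranged from -0.566 to 3.79 percentage points, and the BH3-only to guardian ratio in the NFIB mutant against TKO from -0.0227 to 0.0433, while with the longest transcript as length the CARM1 knockout ratio differed by 0.0163.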
